A study of Homo sapiens with 60 samples.

Results

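Butyrate acts on cells at 3 points that are represented here by 8 genes: histone deacetylases, many of which it inhibits (HDAC1, HDAC2, HDAC3, HDAC8, HDAC5 and HDAC6), the transporter that carries it across the plasma membrane (SLC16A1), and a linker histone that higher doses of it are known to raise (H1F0). The genes were chosen by symbol for these roles, with earlier results of these data known, and make up 8 of the 29744 genes in the deposited table. All 8 passed the filter on low counts and were among the 11298 genes tested.

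Histone deacetylases remove acetyl groups from lysines of histones and other proteins, which favours compact chromatin and lower transcription. Butyrate, made by gut bacteria from dietary fibre, enters colon cells largely through the monocarboxylate transporter encoded by SLC16A1, is oxidised in mitochondria as a fuel, and inhibits most class I and IIa zinc-dependent deacetylases when it accumulates, while HDAC6 is known as insensitive to it. The linker histone H1.0, encoded by H1F0, binds DNA between nucleosomes, builds up in resting and differentiating cells, and is a long-known marker of the response to butyrate in cultured cells.

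The study grew spheroids of HCT116, a human colorectal carcinoma line, and measured RNA with 3'-end sequencing, in which 1 molecule gives about 1 count whatever the length of the transcript. Spheroids were left untreated or exposed from day 1 to day 8 after seeding to 1 µM butyrate, 0.1 µM hemin, 1 µM kynurenine, 1 µM kynurenic acid, or hemin plus kynurenine. The titles of the combination give 1 µM after kynurenine and no dose after hemin, and the protocol lists hemin at 0.1 µM only. Each of these 6 treatments was sampled in both of the media labelled Medium 1 and Medium 2, with 5 biological replicates in each of the 12 groups and 60 libraries in all. The design compares spheroids sampled directly with spheroids kept for 3 h without nutrients, and the labels do not say which of Medium 1 and Medium 2 is which. All spheroids shared a high-glucose culture medium with 10% serum, and all groups are of this 1 cell line. No source used here says whether replicates were separate cultures, so a p-value reflects only how far these samples scatter.

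Total counts ran from 1346147 to 3083249 per library, with a median of 1901981. The level of a gene is given below in CPM, the count relative to the library total after TMM scaling, which is not divided by length because the counts come from transcript ends. Of 12 markers of colon epithelium, 7 were abundant enough to test, VIL1 and TFF3 were listed at 0, and the summed level was 1240 to 1830 CPM in Medium 1 and 1230 to 1600 CPM in Medium 2. Markers of fibroblasts summed to at most 14.5 CPM, those of immune cells to at most 4.05 CPM, and COL1A2, COL3A1, LUM and CD3E were listed at 0. The libraries in wells B2 (Medium 1, butyrate) and A7 (Medium 2, kynurenine) lay farthest from their group means over all genes. All Medium 1 libraries occupied one part of the plate and all Medium 2 libraries the other, so plate part and medium cannot be told apart. Each group also filled a run of consecutive wells, so an exposure cannot be separated from its place on the plate. In spheroids, a change in the share of cells that carry a transcript and a change in its amount per cell cannot be told apart either.

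The 8 genes lie on GRCh38 as annotated in GENCODE v29: HDAC1 on chromosome 1 from 32292086 to 32333635, HDAC2 on 6 from 113933028 to 114011308, HDAC3 on 5 from 141620876 to 141636870, HDAC8 on X from 72329516 to 72573199, HDAC5 on 17 from 44076746 to 44123702, HDAC6 on X from 48801377 to 48824982, SLC16A1 on 1 from 112911847 to 112957013 and H1F0 on 22 from 37805093 to 37807436. Reads come from the last exon and 3' UTR of each gene, so the uniqueness of those ends bears on the counts. In 7 of the genes none of the 50-base words in the last 500 bases of their transcripts occurred in another gene. In HDAC8, 18.7% did, and the same-strand gene AL133500.1 runs across its 3' end, so the HDAC8 values are uncertain. The antisense gene AC008781.1 covers the 3' end of HDAC3, and whether strand was used in counting is unknown from the sources used.

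RefSeq promoter windows of 300 bases (250 before and 50 after a start, GRCh38.p14) were matched for 5 of the 8 genes. The windows of HDAC1, which passed no test, and of HDAC8, whose level was lower in Medium 2, are printed as examples from class I enzymes. The HDAC8 window lies inside the annotated gene, which reaches to 72573199, so its start need not be the only one. Capitals mark the GC box GGGCGG and the CCAAT box on either strand. HDAC1 is chr1:32291833-32292132 on the plus strand and HDAC8 is chrX:72572794-72573093 on the minus strand.
HDAC1: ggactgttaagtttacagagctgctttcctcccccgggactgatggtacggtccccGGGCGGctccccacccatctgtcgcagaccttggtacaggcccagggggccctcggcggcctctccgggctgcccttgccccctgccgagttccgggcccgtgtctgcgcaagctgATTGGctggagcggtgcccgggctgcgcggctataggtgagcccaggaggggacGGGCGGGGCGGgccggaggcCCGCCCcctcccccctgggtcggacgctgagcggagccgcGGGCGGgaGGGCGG
HDAC8: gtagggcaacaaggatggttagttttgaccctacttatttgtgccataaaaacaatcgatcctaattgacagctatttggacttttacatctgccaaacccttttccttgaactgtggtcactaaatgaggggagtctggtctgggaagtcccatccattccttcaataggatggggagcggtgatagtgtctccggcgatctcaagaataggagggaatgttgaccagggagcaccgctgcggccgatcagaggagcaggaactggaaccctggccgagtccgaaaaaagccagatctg
The HDAC1 window held 6 GC boxes, some of them overlapping, and 1 CCAAT box at a GC content of 73.7%. The HDAC8 window held neither box, no TATA box (searched as TATAAA), no H1 box of linker histone promoters (searched as AAACACA) and no E-box (searched as CACGTG), at 49.3% GC. Of 35116 promoter windows of the same length, 45% held a GC box, 34.6% a CCAAT box, 11.5% a TATA box, 5.64% an H1 box and 7.26% an E-box, each counted on both strands. The HDAC3 window held 3 GC boxes and the HDAC2 window held none of the 5 motifs. The windows of HDAC6, which differ in their start, held from 1 to 4 GC boxes, so the motifs found depend on the start chosen. HDAC5, SLC16A1 and H1F0 had no entry.

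Most counts of the zinc-dependent deacetylases came from class I enzymes. How evenly the ends of different transcripts were captured was not tested, so levels of different genes are compared as counts only, here and below. HDAC2, a catalytic subunit of the NuRD, SIN3 and CoREST complexes, had 305 ± 19.8 CPM (SD, n = 60 libraries). Its close relative HDAC1, which works in the same complexes, had 159 ± 14.7 CPM, and HDAC3, the enzyme of the NCOR and SMRT complexes, 75.4 ± 12.7 CPM. HDAC8, a class I enzyme that acts outside those complexes, had 25.6 ± 5.24 CPM. HDAC6, the mainly cytoplasmic tubulin deacetylase, had 19 ± 5.97 CPM and HDAC5, a class IIa enzyme that shuttles between nucleus and cytoplasm, 12.6 ± 4.53 CPM. The libraries of HDAC1 (133 to 199 CPM) and HDAC2 (269 to 346 CPM) did not overlap, whereas those of HDAC8 (12.9 to 38.2), HDAC6 (8.69 to 33) and HDAC5 (5.28 to 30.5) did. Among the other zinc-dependent enzymes, HDAC7 had 45.9 ± 26.9 CPM, HDAC4 7.62 ± 3.52, HDAC11 5.8 ± 3.3 and HDAC9 4.59 ± 2.79, and HDAC10, at 0.874 CPM, was too low to test. The class I enzymes took 71.5% to 90.7% of the counts of all 11 zinc-dependent deacetylases, with a median of 86.3%.

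SLC16A1 had 336 ± 29.4 CPM and on average exceeded every other listed carrier of short-chain fatty acids. SLC16A3, a monocarboxylate exporter best known for lactate, had 179 ± 40.7 CPM and SLC16A7 11.6 ± 4.28 CPM. BSG, which escorts SLC16A1 to the membrane, had 30 ± 7.15 CPM, and EMB, a relative of it, 10.3 ± 3.4 CPM. The sodium-coupled carrier SLC5A8 gave 1 count over all 60 libraries. The receptor FFAR2 gave 6, and FFAR3, HCAR2, SLC5A12 and SLC26A3 were listed at 0 in every library. A count of 0 allows up to 3 counts in a library, or 0.973 to 2.23 CPM over the range of depths, for counting error only. TXNIP, which most cultured human cells express, was listed at 0 as well, so a listed 0 was not read as absence.

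H1F0 had the highest mean of the 8 genes over all 60 libraries and in Medium 1, while SLC16A1 had the highest in Medium 2. H1F0 had 372 ± 81.1 CPM and single libraries from 247 to 626 CPM. It supplied most of the linker histone counts, 57.9% to 81.9% in Medium 1 (median 70.6%) and 52.2% to 78.8% in Medium 2 (median 63.4%). H1FX had 97.8 ± 14.5 CPM and HIST1H1C 73.9 ± 25.2 CPM, while HIST1H1A and HIST1H1D were listed at 0. Transcripts of most H1 genes lack a poly(A) tail, and 3'-end priming does not catch such RNA well, so these shares describe the tailed RNA. The plot of CPM by library shows the spread behind each of these levels.

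**Figure D1:**
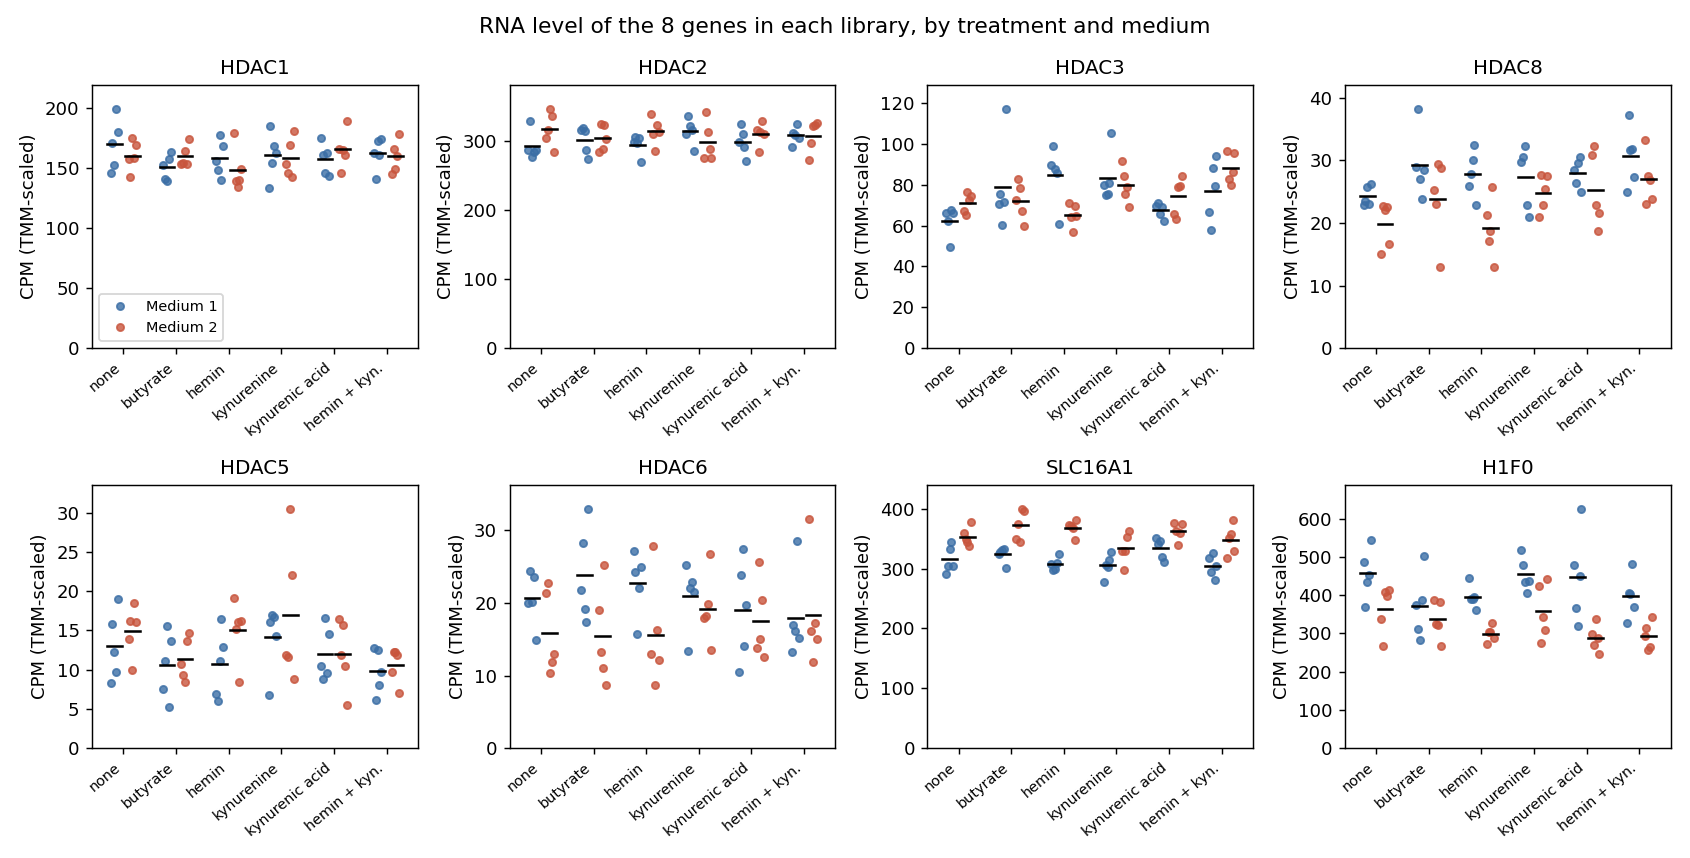
Each panel plots 1 gene, with CPM after TMM scaling on the y axis from 0 and the 6 treatments on the x axis. Points are single libraries (5 a group, Medium 1 blue and Medium 2 red) and black lines are group means. The Medium 2 means lie below the Medium 1 means in all 6 treatments for H1F0 and HDAC8 and above them for SLC16A1, and the 1 HDAC3 library at 117 CPM is the butyrate library of well B2.

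H1F0 was lower and SLC16A1 higher in Medium 2, with the treatments averaged, while HDAC1, HDAC2 and HDAC3 had nearly equal levels in both media. HDAC8 and HDAC6 were lower in Medium 2, and HDAC5 did not pass the test. In this comparison of 30 libraries with 30, 4 of the 8 genes passed at an adjusted p of 0.05, with edgeR's quasi-likelihood F-test and p-values adjusted by Benjamini-Hochberg over all genes tested. Of all tested genes, 46.1% passed, 22.8% higher and 23.3% lower in Medium 2, so the share of the 8 is near the background.

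H1F0 ranged from 282 through a median of 406 to 626 CPM in Medium 1 and from 247 through 312 to 442 CPM in Medium 2. The ranges overlapped, yet 26 of 30 Medium 2 libraries lay below the Medium 1 median, and the group mean was lower in all 6 treatments. The means were 421 ± 74.2 and 323 ± 54.6 CPM (SD, n = 30 each), which on the log2 scale is a change of -0.38 (SE 0.06, adjusted p = 1.34e-07). This is a fold of 0.768, with a 95% interval of 0.709 to 0.831. Of the 4 tested linker histones H1F0 alone passed: H1FX had a log2 fold change of -0.02 (adjusted p = 0.779), HIST1H1C of 0.28 (0.0924) and HIST1H1E of 0.22 (0.516).

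SLC16A1 ranged from 278 through 312 to 351 CPM in Medium 1 and from 298 through 358 to 400 CPM in Medium 2. All Medium 2 libraries but 1 lay above the Medium 1 median, and 17 of 30 lay outside the Medium 1 range. Means were 315 ± 18.9 and 356 ± 22.8 CPM, or 0.18 on the log2 scale (SE 0.03, adjusted p = 8.48e-07). Its change was thus smaller than that of H1F0 but its libraries were the least scattered, with a biological coefficient of variation of 0.0694 against 0.153 for H1F0. SLC16A3 went from 190 ± 36.9 to 168 ± 42 CPM (log2 fold change -0.18, adjusted p = 0.0381), a call that was lost in 28 of 60 fits that left out 1 library each and with plate row in the model (adjusted p = 0.055). BSG, at a log2 fold change of 0.16, failed the test (adjusted p = 0.119).

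HDAC8 ranged from 20.9 through 27.6 to 38.2 CPM in Medium 1 and from 12.9 through 23 to 33.3 CPM in Medium 2. Its means of 27.9 ± 4.19 and 23.3 ± 5.26 CPM differed by -0.26 on the log2 scale (SE 0.07, adjusted p = 0.00181), and 25 of 30 Medium 2 libraries lay below the Medium 1 median. HDAC6 ranged from 10.5 through 21.7 to 33 CPM and from 8.69 through 15.6 to 31.6 CPM. Its means of 20.9 ± 5.39 and 17 ± 5.97 CPM gave an adjusted p of 0.0288, with a mean lower in Medium 2 in 5 of 6 treatments. For HDAC6, 24 of 30 Medium 2 libraries lay below the Medium 1 median, but the call was near the threshold. It was lost in 2 of 60 fits that left out 1 library each (adjusted p up to 0.0574). These were the fits without the Medium 1 libraries G3 (kynurenic acid) or E4 (hemin plus kynurenine). The call was also lost without B2, C2 and D2 together (log2 fold change -0.24, adjusted p = 0.0868).

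The catalytic core of the nuclear complexes did not pass. HDAC1 had 160 ± 15.4 and 159 ± 14.1 CPM (log2 fold change -0.01, adjusted p = 0.865), HDAC2 301 ± 18.2 and 308 ± 21 CPM (0.03, 0.4) and HDAC3 75.6 ± 15 and 75.1 ± 10.1 CPM (-0.01, 0.909). HDAC5 had 11.7 ± 3.91 and 13.5 ± 4.98 CPM (0.19, adjusted p = 0.204). Its libraries scattered with a biological coefficient of variation of 0.274, which leaves out counting noise.

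**Figure D2:**
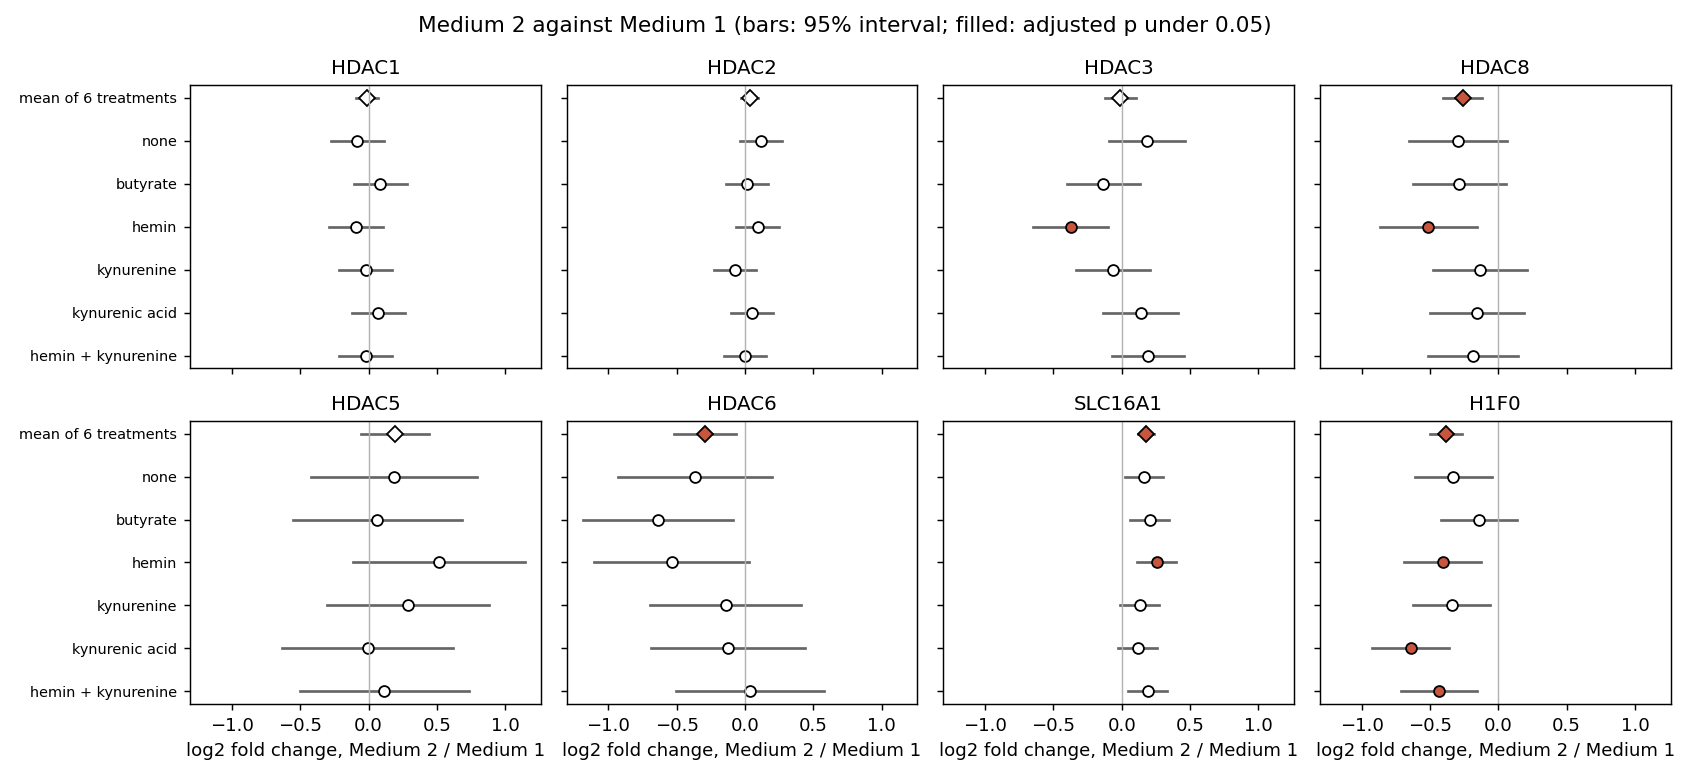
Each panel plots the log2 fold change of 1 gene, Medium 2 over Medium 1, for the mean of the 6 treatments (diamond) and within each treatment (circles), with bars for 95% intervals and filled symbols for an adjusted p under 0.05. H1F0 lies left of 0 in every comparison and SLC16A1 right of 0, while HDAC1 and HDAC2 stay close to 0.

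Within single treatments, 5 libraries against 5, fewer calls were made. In untreated spheroids none of the 8 genes passed, where 6.38% of all genes did, and DESeq2 also called 0. An unadjusted p under 0.05 was reached by 2 of them, H1F0 and SLC16A1, and by 19.1% of all genes. Untreated H1F0 was 486, 370, 435, 452 and 544 CPM in Medium 1 and 337, 266, 407, 398 and 413 CPM in Medium 2. Most Medium 2 values were the lower ones, but the groups overlapped (log2 fold change -0.33, adjusted p = 0.167; with only these 10 libraries in the fit, adjusted p = 0.0479). Untreated SLC16A1 was 290, 305, 333, 345 and 304 CPM in Medium 1 and 359, 349, 344, 337 and 378 CPM in Medium 2 (0.16, adjusted p = 0.177). HDAC8 was 22.9, 23.5, 25.7, 23 and 26.2 CPM in Medium 1 and 15, 22.7, 22, 22.5 and 16.7 CPM in Medium 2. These HDAC8 groups only just missed overlapping, with 22.7 CPM in Medium 2 next to 22.9 CPM in Medium 1, and the test did not pass (-0.29, adjusted p = 0.388). The share of all genes whose groups do not overlap is not given, so a lack of overlap is description only, here and in the treatments below.

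With hemin, a heme compound, the media differed for 4 of the 8 genes, where 23.9% of all genes were called. SLC16A1 was 308, 298, 300, 310 and 324 CPM in Medium 1 and 373, 371, 368, 348 and 381 CPM in Medium 2, with no overlap (log2 fold change 0.26, adjusted p = 0.0062). H1F0 was 444, 391, 389, 395 and 360 CPM in Medium 1 and 271, 303, 304, 328 and 288 CPM in Medium 2, again apart (-0.41, adjusted p = 0.0294). HDAC8 (-0.51, adjusted p = 0.0298) and HDAC3 (-0.37, adjusted p = 0.0386) were lower in Medium 2 as well. Leaving out 1 of the 10 libraries ended the HDAC3 call in 7 cases, the HDAC8 call in 6, the H1F0 call in 4 and the SLC16A1 call in none. With no filter on low counts the adjusted p was 0.104 for SLC16A1, 0.07 for HDAC3 and 0.0757 for HDAC8, and with only the compared groups in the fit 0.0861, 0.0637 and 0.0716, so these 3 calls ended under both settings while that of H1F0 did not. Plate row as a covariate ended the HDAC3 call (adjusted p = 0.0577). Without wells B2, C2 and D2 all 4 were lost, with log2 fold changes of -0.26 (HDAC3, adjusted p = 0.252), -0.54 (HDAC8, 0.0818), 0.24 (SLC16A1, 0.0543) and -0.35 (H1F0, 0.128).

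With kynurenic acid, a tryptophan metabolite, H1F0 alone passed, where 8.56% of genes did. It was 479, 366, 320, 449 and 626 CPM in Medium 1 and 298, 270, 338, 288 and 247 CPM in Medium 2. The Medium 2 values were lower but for 1 that lay above the lowest Medium 1 library (-0.64, SE 0.14, adjusted p = 0.00186). With hemin plus kynurenine, where 16.3% of genes passed, H1F0 was again the only one of the 8 (-0.43, adjusted p = 0.0253), and this was lost without well E4, B8 or C8. SLC16A1 was just above the threshold there (0.19, adjusted p = 0.0535) and was called by DESeq2 (0.18, adjusted p = 0.0275), without wells B2 and A7 (0.19, adjusted p = 0.0453) and without well H7. With kynurenine (8.01% of genes called) none passed, and DESeq2 also called 0. H1F0 had the 1 unadjusted p under 0.05 (-0.34, adjusted p = 0.122), where 22.2% of all genes had one.

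With butyrate none of the 8 genes passed between media, where 9.89% of all genes did. An unadjusted p under 0.05 was reached by 2 of them, SLC16A1 and HDAC6, and by 24.5% of all genes. SLC16A1 was 325, 328, 331, 332 and 301 CPM in Medium 1 and 350, 374, 344, 400 and 396 CPM in Medium 2, with no overlap (log2 fold change 0.21, adjusted p = 0.0513). DESeq2 called it (0.20, adjusted p = 0.0155), as did edgeR without well D5 or F5. H1F0 had its smallest difference between media here (-0.14, 95% interval -0.42 to 0.14, adjusted p = 0.569).

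No exposure changed any of the 8 genes past the threshold. In edgeR, 0 of 80 tests of a gene in an exposed group against the untreated group of its medium passed, 9 had an unadjusted p under 0.05, and DESeq2 called 1. Over the same comparisons 8.17% of all tests had an unadjusted p under 0.05. Few genes of any kind passed: 0.00885% with butyrate, 0.133% with hemin, 0.0354% with kynurenine, 0% with kynurenic acid and 0.0266% with hemin plus kynurenine in Medium 1. In Medium 2 these shares were 0%, 0%, 0.0266%, 0.0177% and 0.558%. The comparisons within a medium share their untreated libraries, so they are not independent of each other.

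H1F0 was not higher with 1 µM butyrate in either medium. In Medium 1 the exposed libraries had 374, 312, 282, 386 and 503 CPM against 486, 370, 435, 452 and 544 CPM untreated. They overlapped and lay lower on the whole, except for the 503 CPM of well B2 (log2 fold change -0.30, 95% interval -0.58 to -0.02, adjusted p = 0.567). In Medium 2 they had 387, 325, 323, 381 and 267 CPM against 337, 266, 407, 398 and 413 CPM (-0.11, -0.40 to 0.17, adjusted p = 1). The upper ends of the intervals were folds of 0.985 and 1.12, so a rise beyond these lies outside the intervals. The difference of the responses between media was 0.19 (-0.21 to 0.58, adjusted p = 0.982).

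CDKN1A, the cell cycle inhibitor that deacetylase inhibitors are known to raise, had 170 ± 10.6 CPM untreated and 182 ± 28 CPM with butyrate in Medium 1 (log2 fold change 0.10, adjusted p = 0.826). In Medium 2 it had 269 ± 16.3 and 221 ± 17.6 CPM (-0.28, unadjusted p = 0.023, adjusted p = 1). SLC16A1 went from 315 ± 22.8 to 323 ± 12.7 CPM with butyrate in Medium 1 (0.04, 95% interval -0.10 to 0.18) and from 353 ± 16 to 373 ± 25.5 CPM in Medium 2 (0.08, -0.06 to 0.22). HDAC1 had 170 ± 21.3 and 150 ± 10.4 CPM in Medium 1 (-0.17, adjusted p = 0.609) and 160 ± 12.6 and 160 ± 9.27 CPM in Medium 2. HDAC2 moved by 0.05 and -0.06, and HDAC8 had values of 0.27 and 0.28 that did not pass (adjusted p = 0.65 and 1).

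HDAC3 came nearest to a call. Untreated Medium 1 libraries had 66.3, 62.4, 49.5, 67.8 and 66.2 CPM, and those with hemin 89.6, 99, 87.7, 85.6 and 60.6 CPM. All hemin libraries but that of well G2 exceeded every untreated one (log2 fold change 0.44, SE 0.14, unadjusted p = 0.00194, adjusted p = 0.0686). The call was made without well G2, without wells B2 and A7 (0.45, adjusted p = 0.0253) and by DESeq2 (0.45, adjusted p = 0.0366). Of the 10 fits that left out 1 library, that without G2 was the only 1 to call it. Over these fits the log2 fold change went down to 0.37 and the adjusted p up to 0.235. It was not called with RLE scaling, no filter, plate row as covariate, only the compared groups, or without wells B2, C2 and D2. In Medium 2 hemin libraries had 70.9, 64.3, 57, 69.7 and 64.8 CPM against 67, 65.3, 76.4, 72.6 and 74.2 CPM untreated (-0.12, adjusted p = 0.874). The difference between the media was -0.56 (unadjusted p = 0.00553, adjusted p = 0.236). With butyrate in Medium 1 HDAC3 was 70.4, 75.5, 60.4, 71.3 and 117 CPM (0.34, adjusted p = 0.515), where the high value is well B2, without which the log2 fold change was 0.16 (adjusted p = 0.82). The untreated Medium 1 group had the lowest HDAC3 mean of the 12 groups, 62.4 ± 7.49 CPM, and all 5 exposures are compared with it.

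**Figure D3:**
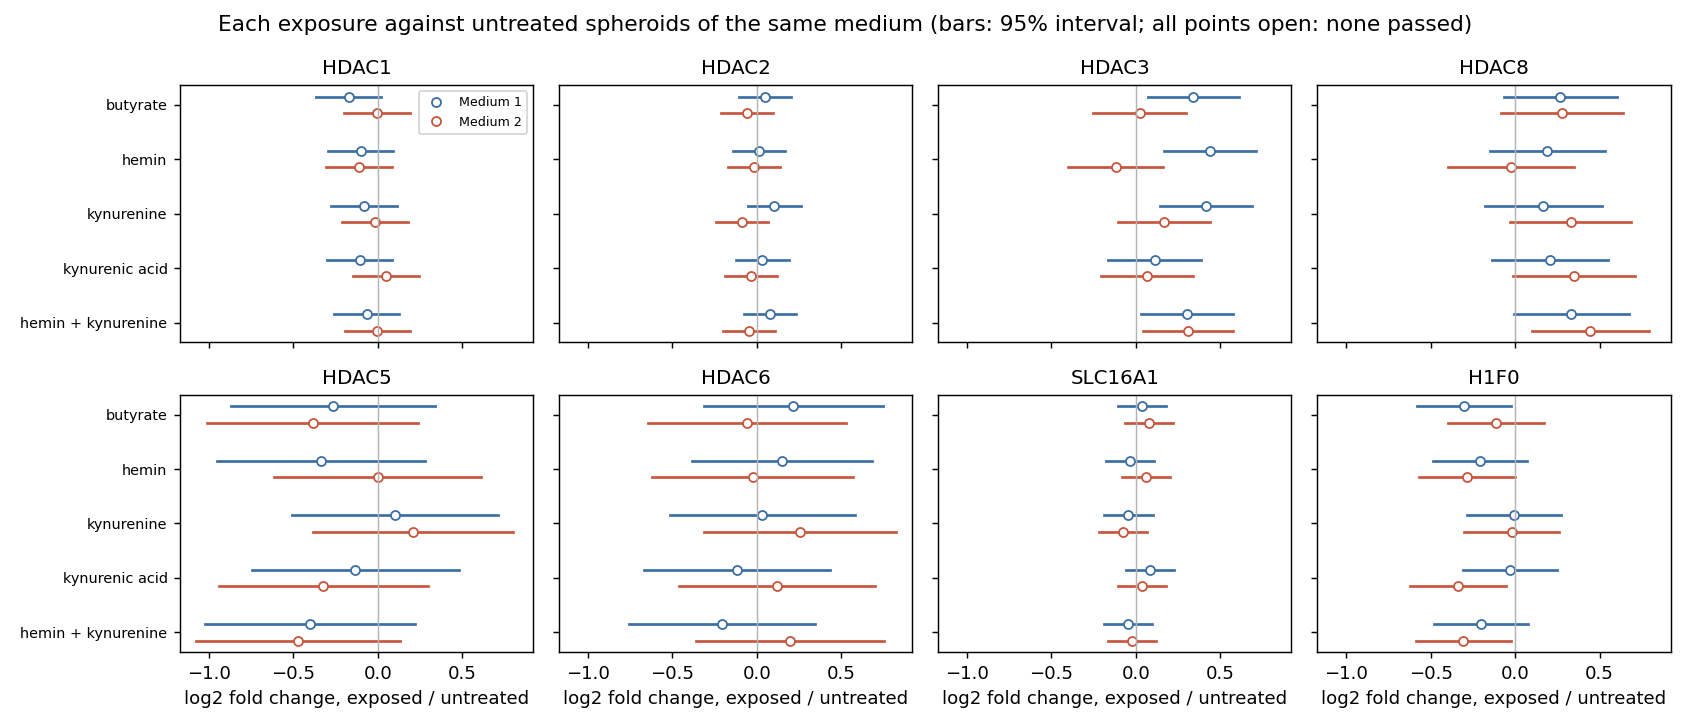
Each panel plots the log2 fold change of 1 gene in each exposure against untreated spheroids of the same medium (Medium 1 blue, Medium 2 red), with bars for 95% intervals; all points are open because none passed. H1F0 lies at or left of 0 in all 10 comparisons, from -0.34 to -0.01, and HDAC3 lies right of 0 in 9.

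The intervals bound what these data could show. Over the 10 comparisons the 95% intervals stayed within a fold of 1.17 either way for SLC16A1, 1.2 for HDAC2 and 1.29 for HDAC1. For H1F0 the bound was 1.54, for HDAC3 1.63, for HDAC8 1.73, for HDAC6 1.77 and for HDAC5 2.11. These bounds are the far ends of the intervals, not limits of detection. H1F0 had 3 unadjusted p under 0.05, all from lower values, HDAC3 had 5 and HDAC8 1. The difference of each response between media passed in 0 of 40 tests (1 unadjusted p under 0.05, against 6.93% of all tests, and 0 by DESeq2), where 0%, 0%, 0.0177%, 0% and 0.0266% of all genes passed with butyrate, hemin, kynurenine, kynurenic acid and the combination. A joint test for any difference among the 6 treatments called 0 of 8 in Medium 1 (0.0797% of genes) and 0 of 8 in Medium 2 (0.142%). HDAC3 had the lowest unadjusted p in both, 0.0111 and 0.0445, and DESeq2 called 0.

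Ordered by group mean, the 6 Medium 1 groups stood above all 6 Medium 2 groups for H1F0, from 457 ± 64.4 CPM (untreated, Medium 1) to 288 ± 34 CPM (kynurenic acid, Medium 2). SLC16A1 showed the reverse order, from 373 ± 25.5 CPM (butyrate, Medium 2) to 304 ± 18.2 CPM (hemin plus kynurenine, Medium 1). HDAC8 ran from 30.6 ± 4.7 CPM (hemin plus kynurenine, Medium 1) to 19.2 ± 4.79 CPM (hemin, Medium 2), and HDAC3 from 88.1 ± 7.62 CPM (hemin plus kynurenine, Medium 2) to 62.4 CPM (untreated, Medium 1). In each of the 8 genes, all 11 pairs of neighbours in this order lay closer than the larger of their SDs.

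The genes with the most similar pattern over the 12 group means of log2 CPM were found among 8740 genes of at least 10 CPM. The points share libraries within groups and the difference between media, so Pearson's r is a description only. For H1F0 they were ELK3 (r = 0.976) and MTX3 (0.957), for SLC16A1 CPSF6 (0.95) and UTP15 (0.946), and for HDAC8 DDA1 (0.926) and KIF15 (0.901). For HDAC6 they were CLMN (0.91) and EPS8L2 (0.907), for HDAC3 SMARCB1 (0.897) and ZCRB1 (0.895), and for HDAC5 CD99 (0.884) and PGM1 (0.882). HDAC2 (CUEDC2, 0.869, and TTI2, 0.817) and HDAC1 (ANKRD6, 0.837, and BRMS1L, 0.791) had the weakest matches.

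Partner and pathway genes were read in the averaged comparison of the media, where 63 of 115 tested list genes passed, against 46.1% of all genes (22.8% higher and 23.3% lower). The median log2 fold change of all tested genes was -0.005. Among the other zinc-dependent deacetylases, HDAC4 fell from 9.83 ± 2.84 to 5.42 ± 2.67 CPM (log2 fold change -0.88, adjusted p = 4.54e-07) and HDAC7 from 55.2 ± 33.5 to 36.6 ± 13.3 CPM (-0.56, adjusted p = 0.000251). With HDAC6, 3 of 6 tested class II and IV genes were lower and none higher, with a list median of -0.36, and in class I HDAC8 alone passed. In untreated spheroids 0 of the 6 class II and IV genes passed, where 6.38% of all genes did, with a list median of -0.10. HDAC7 differed by 0.01 between media in untreated spheroids (adjusted p = 0.997) and was high in the neighbouring Medium 1 wells B2 (164 CPM, butyrate), C2 (175) and D2 (84, both hemin), which were picked out after their values were seen. Without those wells its averaged difference was -0.34 (adjusted p = 0.00305). In Medium 1 with hemin, HDAC7 was 175, 84, 48.5, 70.9 and 37.8 CPM against 34.6, 50.2, 30.6, 26 and 37.4 CPM untreated (1.22, adjusted p = 0.0581). DESeq2 called it (adjusted p = 0.0213), as did edgeR with no filter (0.0134), with only the compared groups (0.042) and without wells B2 and A7 (0.0116). Of the 10 fits that left out 1 library, 3 called it, with an adjusted p up to 0.221. It was not called with RLE scaling, with plate row as covariate or without wells B2, C2 and D2.

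Of the 7 sirtuins, NAD-dependent deacylases that butyrate does not inhibit, SIRT1 rose from 47.7 ± 11.7 to 73.3 ± 16.3 CPM (0.63), and SIRT7 (-0.56) and SIRT6 (-0.61) fell. The 35 tested subunits of the deacetylase complexes split into 7 higher and 13 lower, with a median of -0.04. ING1, a SIN3 subunit that reads methylated histone H3, rose from 39.3 ± 7.17 to 70.9 ± 12.8 CPM (0.85, adjusted p = 7.82e-17), and TBL1XR1 of the NCOR complex rose by 0.28. SUDS3 (-0.63) and SIN3B (-0.69), both of the SIN3 complex, fell. Of 13 acetyltransferases, the enzymes that oppose the deacetylases, 5 were higher and 3 lower (median 0.15): KAT6A rose by 0.43, CREBBP by 0.28 and KAT7 by 0.24, and KAT2A had -0.54.

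Of 6 tested genes of short-chain fatty acid transport, SLC16A1 was the 1 higher and SLC16A3 the 1 lower, with a median of -0.17. Of 16 tested genes of butyrate oxidation and acetyl-CoA supply, 7 were higher and 1 lower (median 0.13). PDHB rose by 0.31, HADHB of the mitochondrial trifunctional protein by 0.27, ETFA by 0.22 and ACLY, which makes cytosolic acetyl-CoA, by 0.18. The 1 that fell was ACSS2 (-0.24, adjusted p = 0.0326), named after its value was seen. Of 9 core histone genes with polyadenylated transcripts, 7 were higher and none lower (median 0.26), among them H2AFX (0.45), H2AFZ (0.38, from 1560 ± 192 to 2020 ± 237 CPM), HIST1H2BK (0.32) and H2AFY (0.24).

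Of 16 tested genes known to respond to butyrate or deacetylase inhibitors, 10 were higher and 1 lower in Medium 2 (median 0.32), whereas H1F0 was lower. The list was chosen with earlier results of these data known, and the cause of this split was not tested. CDKN1A went from 174 ± 25.5 to 267 ± 35.9 CPM (log2 fold change 0.62, adjusted p = 3.71e-16), above the Medium 1 median in 30 of 30 Medium 2 libraries. Within single treatments CDKN1A passed between media in all but butyrate (0.28, adjusted p = 0.136). ANGPTL4, a secreted lipase inhibitor, went from 17.9 ± 10.5 to 53 ± 22.8 CPM (1.58), and KLF6 rose by 0.48 and MT2A, a metallothionein, by 0.28. The 1 that fell was GADD45B (-0.45, adjusted p = 7.36e-07), named after its value was seen. Of the listed genes, none of 115 passed with butyrate in either medium (10 and 4 had an unadjusted p under 0.05, against 8.54% and 3.55% of all genes). The listed genes passed in 1 of the 10 exposure comparisons, hemin plus kynurenine in Medium 2, with MTA3 (-0.63) and PDHA1 (0.49), both at an adjusted p of 0.0433. Leaving out 1 of the 10 libraries ended the MTA3 call in 9 cases and the PDHA1 call in 8.

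**Figure D4:**
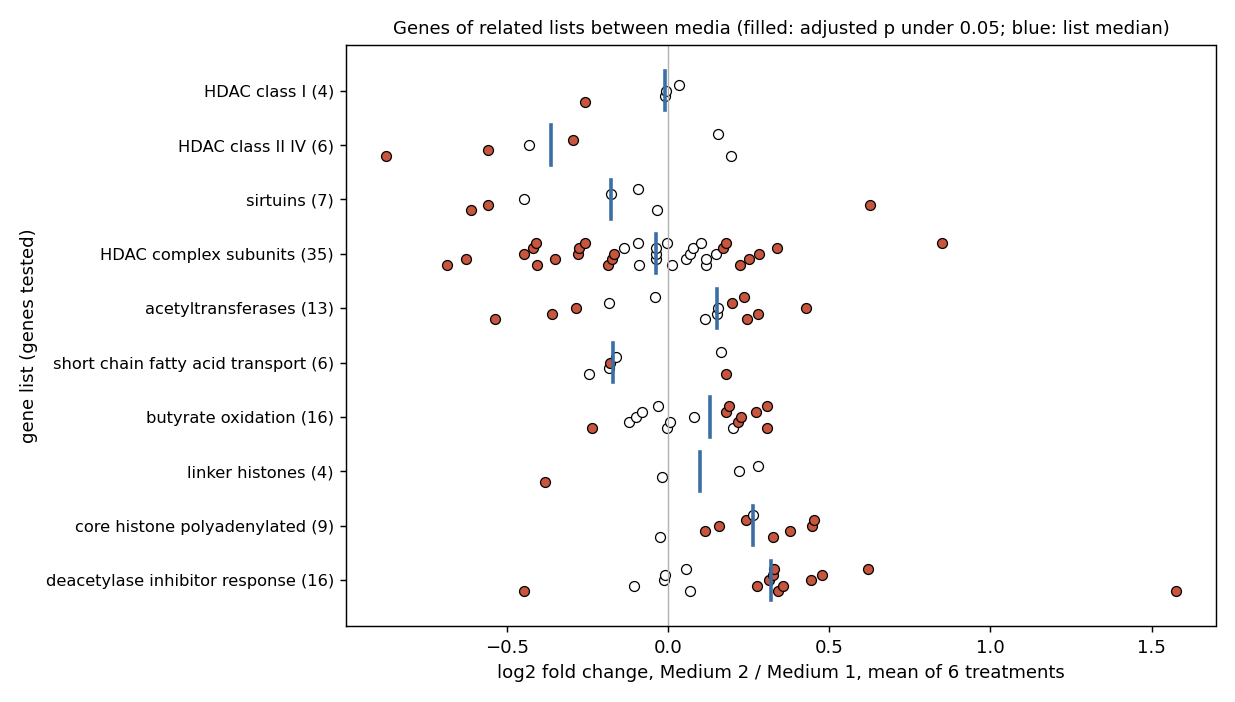
Each point is 1 tested gene of a list, with its log2 fold change, Medium 2 over Medium 1 averaged over the 6 treatments, on the x axis. Lists and their number of tested genes are on the y axis, filled points had an adjusted p under 0.05 and blue bars are list medians. Core histone genes and genes of the inhibitor response lie mostly right of 0, while H1F0, the filled linker histone, lies left of it.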

How the data were processed

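The deposited table holds estimated counts per gene for 60 libraries made by the authors with a QuantSeq 3' FWD kit and unique molecular identifiers (48 ng RNA, 18 PCR cycles, per the labels' protocols). Salmon 1.5.2, STAR, cutadapt 3.4, UMI-tools 1.1.2 and FastQC 0.11.9 are named with GRCh38 in the submitters' processing notes. No source used here names the gene annotation or the handling of multi-mapping reads. Of all values, 10.1% were not whole and were rounded.

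Groups come from the sample titles. A treatment entry that reads alike for all 60 samples was not used. Columns name the group and the plate well without a replicate number. No pair of replicates agreed within sampling noise (chi-square per degree of freedom 2.27 or more).

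Genes passing filterByExpr (minimum count 10, minimum total 15) held 99.62% of counts. One quasi-likelihood model (edgeR 4.0.16, R 4.3.3, TMM) with 12 group means and 48 residual degrees of freedom gave 24 contrasts with two-sided F-tests. P-values were adjusted over 11298 genes, with a threshold of 0.05. Standard errors were taken as the size of the log2 fold change over the root of F. On simulated data, 42% of genes changed by 0.2 and 96% of those changed by 0.4 (log2) were recovered in the averaged contrast, and 0% and 16% in the untreated contrast. The simulation changed only 50 genes at each size, all of at least 10 CPM, whereas 46.1% of genes passed in the averaged contrast of the data. These shares therefore check the procedure and do not give the power of the tests on these data.

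The 8 genes, 10 gene lists, tests and alternatives were chosen with earlier results of these data known. Named were the 8 genes, up to 4 called genes per list by smallest p in the averaged contrast, CDKN1A, SLC16A3, BSG and HDAC7, the 2 most similar genes per member, and called list genes in exposures. Alternatives were RLE scaling, no filter, plate row as covariate, only the groups compared, DESeq2 1.42.0, leaving out each library, and, chosen after seeing the data, leaving out wells B2 and A7 or B2, C2 and D2. Gene coordinates are from GENCODE v29 and promoters from RefSeq.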

Additional observations from a re-analysis of the deposited data

Results flagged for a closer look

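Of 144 pairs of gene and group checked (12 genes in 12 groups of 5 libraries), 12 held 1 library far from the other 4, where chance gives about 1 in 20, or 7.2. In each, the gap to the nearest other library exceeded 0.71 of the range of the group. Well B2 (Medium 1, butyrate) was such a library for 3 genes: HDAC3 at 117 CPM (others 60.4 to 75.5), SLC16A1 at 301 CPM (others 325 to 332) and HDAC7 at 164 CPM (others 38 to 53.6). HDAC3 also had 105 CPM in well D3 (Medium 1, kynurenine; others 75.1 to 80.7). HDAC2 had 328 CPM in well B1 (Medium 1, untreated; others 276 to 287) and 269 CPM in well G2 (Medium 1, hemin; others 296 to 305). HDAC6 had 28.5 CPM in well E4 (Medium 1, hemin plus kynurenine; others 13.2 to 16.9) and 31.6 CPM in well H7 (Medium 2, same exposure; others 11.8 to 17.3). HDAC5 had 6.78 CPM in well H2 (Medium 1, kynurenine; others 14.3 to 16.9). Outside the 8 genes, SLC16A3 had 298 CPM in well A7 (Medium 2, kynurenine; others 128 to 171), and HDAC7 had 68 CPM in well F4 (Medium 1, hemin plus kynurenine; others 43.4 to 46.3) and 72.8 CPM in well G7 (Medium 2, kynurenic acid; others 30.9 to 34.8). What sets these libraries apart was not tested.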

How the results depend on the processing

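No result changed direction among calls under any alternative; the signs of values that were never called were not read. In the averaged comparison of media H1F0 (log2 fold change -0.39 to -0.35), SLC16A1 (0.17 to 0.19) and HDAC8 (-0.28 to -0.23) passed in all 60 fits that left out 1 library, and the count of the 8 genes passing was 3 to 4. In untreated spheroids 1 gene passed with only the compared groups in the fit. Within the 5 exposures, the 6 calls between media became 3 with no filter, 3 with only the compared groups, 2 without wells B2, C2 and D2, and 3 to 7 on leaving out 1 library (3 without D2 or E6). Against untreated spheroids, 0 calls became 1 (HDAC3 with hemin in Medium 1) with DESeq2, 1 without wells B2 and A7, and 0 to 1 on leaving out 1 library. The cause of these changes was not tested, and the fits that left out libraries or groups held fewer samples. No paired analysis was possible because the columns carry no replicate number. With 1346147 counts in the shallowest library, HDAC5, HDAC6 and HDAC8 rest on few counts (1449, 2245 and 3033 over all 60 libraries).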
